A study of Homo sapiens with 8 samples.

Results

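10 genes of the route by which a fibroblast exports procollagen were followed: the transcription factors CREB3L1 and CREB3L2, the COPII coat genes SAR1A, SAR1B, SEC23A, SEC24D and SEC31A, the procollagen receptor gene MIA3, and the retrieval receptor genes KDELR2 and KDELR3. They were taken by symbol for these roles from the 60666 gene IDs of the deposited count table, and all 10 passed the filter on low counts. These genes and the lists below were chosen with earlier results of these data known. Their shares beside those over all genes are therefore a description. Bulk RNA was sequenced from MRC5, a widely used human fibroblast line from lung. The groups were cells with a hairpin against MTHFD2 (shMTHFD2) given TGF-β1, cells with a control hairpin (shMock) given TGF-β1, shMTHFD2 cells under control conditions and shMock cells under control conditions, each with 2 libraries. MTHFD2 is a mitochondrial enzyme of folate metabolism, and TGF-β1 is a cytokine that drives fibroblasts to make collagen-rich matrix. The series asks how transcription changes when MTHFD2 is reduced in cells under fibrotic activation.

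Every cell sampled carried a hairpin, and neither an untransduced line nor a rescue or further hairpin against MTHFD2 was analysed here, so that each shMTHFD2 difference below is one between lines. The labels give a TGF-β1 amount of 4 ng, with no volume, and 24 h of treatment. That text also stands on the control samples, and the groups therefore follow the titles. The genotype entry of 3 shMTHFD2 samples names a different gene, and the extraction text speaks of a further cell line and hairpin. No label states that replicates were separate cultures, so the spread that the tests use could be technical in part or whole. In bulk RNA, fewer cells of a kind and less RNA per cell cannot be told apart.

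Levels are given as CPM, read counts scaled to library size by trimmed means. MTHFD2 stood at 93.6 and 91.7 CPM in shMTHFD2 libraries with TGF-β1, 256 and 257 CPM in shMock libraries with TGF-β1, 14.9 and 18.7 CPM in shMTHFD2 control libraries and 58.7 and 57.0 CPM in shMock control libraries. Both shMTHFD2 groups lay below their shMock groups without overlap, with log2 fold changes of −1.47 ± 0.09 (adjusted p = 8.75e-07) with TGF-β1 and −1.79 ± 0.10 (adjusted p = 3.53e-07) without it. MTHFD2 was higher in shMTHFD2 cells with TGF-β1 than in shMock control cells. Library totals ran from 18162738 to 22221927 counts. The 9 fibroblast markers summed to 27351 to 50904 CPM. The epithelial markers summed to 24.9 to 35.8 CPM, carried by KRT8 and KRT18, with KRT19 at 0 in all 8 libraries. The endothelial markers summed to 40.7 to 110.0 CPM, carried by TEK at 37.1 to 95.8 CPM, with PECAM1 and CDH5 at 0 in all 8. The leukocyte markers summed to 47.1 to 106 CPM, carried by CD68 at 46.7 to 105 CPM, with PTPRC and LYZ at 0 in 7 of 8. The smooth muscle and pericyte markers summed to 95.6 to 219.9 CPM, carried by MCAM at 85.2 to 213 CPM, with DES at 0 in all 8.

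Procollagen is folded in the endoplasmic reticulum (ER) and leaves it at exit sites, where the COPII coat buds membrane toward the Golgi. A small GTPase, SAR1, starts the coat, the SEC23 and SEC24 proteins form its inner layer and pick cargo, and SEC13 and SEC31 form the outer cage. The procollagen trimer is too long for a usual vesicle, and TANGO1, the product of MIA3, links it at the exit site to the coat and slows the coat's completion. KDEL receptors catch chaperones that escape with the cargo and return them in vesicles with the COPI coat. CREB3L1 (also OASIS) and CREB3L2 (also BBF2H7) are membrane-held transcription factors that are cut in the Golgi by the proteases MBTPS1 and MBTPS2, after which the free part enters the nucleus. Loss of CREB3L1 or SEC24D causes forms of osteogenesis imperfecta in people, and SEC23A mutations cause cranio-lenticulo-sutural dysplasia. In mice Creb3l2 is needed for cartilage secretion through Sec23a.

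The promoters of these genes are of interest because factors of the CREB class recognise sites built on TGACGT, the core of the cyclic AMP response element. RefSeq windows (GRCh38.p14) of 250 bases before to 50 bases after a start were held for 8 of the 10 genes, as 12 windows. TGACGT, searched on both strands, stood in windows of 5 of these genes, MIA3, CREB3L2, SAR1A, SEC23A and KDELR3, while 7.97% of all 34794 windows of this length hold it. The stretches are shown as the 30 bases around it in the direction of transcription, with the motif in capitals.

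CREB3L2: gagttcctcggTGACGTCAcagacactccc

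SAR1A: cggggaggggtgTGACGTacatccggcgag

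SEC23A: gtcccctcctctTGACGTggcagaggcggc

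MIA3: ggcagtggctgaTGACGTgttttataggcg

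KDELR3: gccgccctggccACGTCAccgcccggccaa

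They lie at chr7:138002247-138002276 (minus strand), chr10:70170501-70170530 (minus), chr14:39103222-39103251 (minus), chr1:222644290-222644319 (plus) and chr22:38468040-38468069 (plus). Counted from the start, with bases before it negative, the motif's first base is at −179 in CREB3L2, −4 in SAR1A and SEC23A, −27 in MIA3 and −44 in KDELR3. In CREB3L2 the match extends to the full palindrome, so that it reads alike on both strands, and in KDELR3 it lies on the opposite strand and is seen in reverse complement. The longer TGACGTG stood in MIA3, SEC23A and KDELR3, and in 1.96% of all windows. The windows of CREB3L1, SEC31A and SAR1B hold no TGACGT. The RefSeq starts of MIA3, SEC23A, CREB3L1, SAR1B and SEC31A lie inside the longer GENCODE release 29 genes, so that these windows do not cover the outermost starts of those gene models, with or without a match. The matches are counted by gene, some genes having several windows, while the percentages count windows, so that they are not like measures. A match describes these letters and is not a measured site.

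TGF-β1 raised 8 of the 10 genes in shMTHFD2 cells and 8 of the 10 in shMock cells, and lowered none in either line by edgeR at an adjusted p under 0.05. The 8 were the same in both: CREB3L1, CREB3L2, SEC23A, SEC24D, SEC31A, MIA3, KDELR2 and KDELR3. SAR1A and SAR1B passed in neither. Over all 13493 genes tested, 12.8% passed as higher in shMTHFD2 cells and 17.3% in shMock cells, and 11.0% and 18.1% as lower. The median log2 fold change of the 10 genes was 0.70 in shMTHFD2 cells and 0.66 in shMock cells, against −0.01 and −0.02 over all genes. The 9 genes at an unadjusted p under 0.05 in each line were these 8 and SAR1A, and DESeq2 called 8 in each. The 2 responses share no library, while each difference between the lines below shares libraries with them. On library totals, which shift the median of all genes to −0.12 in shMTHFD2 and −0.16 in shMock cells, the 8 still passed in shMock cells and MIA3 did not in shMTHFD2 cells (adjusted p = 0.107), and all genes split into 1222 higher and 2453 lower, and 1571 higher and 3929 lower, in place of 1725 and 1488, and 2329 and 2443.

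Between the lines, 6 of the 10 genes were called with TGF-β1 and 6 without it. With TGF-β1, 6 were lower and none higher in shMTHFD2 than in shMock: CREB3L1, CREB3L2, SEC23A, SAR1A, KDELR2 and KDELR3. Without TGF-β1, 5 were lower, CREB3L1, SEC23A, SAR1A, KDELR2 and KDELR3, and MIA3 was higher. Over all genes tested, 8.23% were lower and 4.83% higher with TGF-β1, and 8.19% were lower and 3.25% higher without it. The median of the 10 genes was −0.30 with TGF-β1 and −0.27 without, against 0.01 and −0.01 over all genes. Some marker sums of other cell types differed between the groups too, each carried mainly by a single gene (MCAM, CD68 or TEK). Those of smooth muscle and pericytes were 138 to 145 CPM in shMTHFD2 and 218 to 219.9 CPM in shMock cells with TGF-β1, and 95.6 to 100.5 CPM in shMTHFD2 and 163 to 167 CPM in shMock controls. Those of leukocytes were 47.1 to 51.0, 53.4 to 58.5, 74.8 to 76.3 and 101 to 106 CPM in the same order, and those of endothelium 40.7 to 43.3, 43.2 to 48.8, 96.7 to 104 and 98.7 to 110.0 CPM. The endothelial sums of the lines overlapped in both states. So did the epithelial sums, at 28.3 to 35.8, 28.0 to 32.1, 24.9 to 33.0 and 32.6 to 35.2 CPM. The part of the marker genes in the differences was not tested. Fewer of the 10 genes passed without some single libraries. Such a fit leaves 1 library in a group, and the part of this in the lost calls was not tested. With TGF-β1, CREB3L1, CREB3L2, SEC23A, SAR1A and KDELR2 had −0.49, −0.40, −0.31, −0.34 and −0.30 over all libraries. They had −0.42, −0.37, −0.25, −0.29 and −0.31 without shMTHFD2 TGF-β1 replicate 1. The values were −0.33, −0.29, −0.24, −0.31 and −0.28 without shMock TGF-β1 replicate 1. Without TGF-β1, SEC23A, SAR1A, KDELR2 and MIA3 had −0.28, −0.39, −0.37 and 0.35. Without shMock control replicate 2 these were −0.26, −0.33, −0.32 and 0.33. With library totals in place of the trimmed-mean scaling, 3 passed with TGF-β1 (CREB3L1, CREB3L2 and KDELR3, all lower), SEC23A failed without TGF-β1 (adjusted p = 0.0973), and all genes split into 1338 higher and 718 lower with TGF-β1 and 751 and 740 without, in place of 652 and 1110, and 438 and 1105.

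No gene of the 10 passed for the interaction, taken as the response to TGF-β1 in shMTHFD2 cells minus the response in shMock cells. MIA3 alone had an unadjusted p under 0.05, DESeq2 called 0, and edgeR called 0.0889% of all genes, 0.0371% as higher and 0.0519% as lower. The fold changes and their intervals are drawn in the plot of fold changes.

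**Figure D1:**
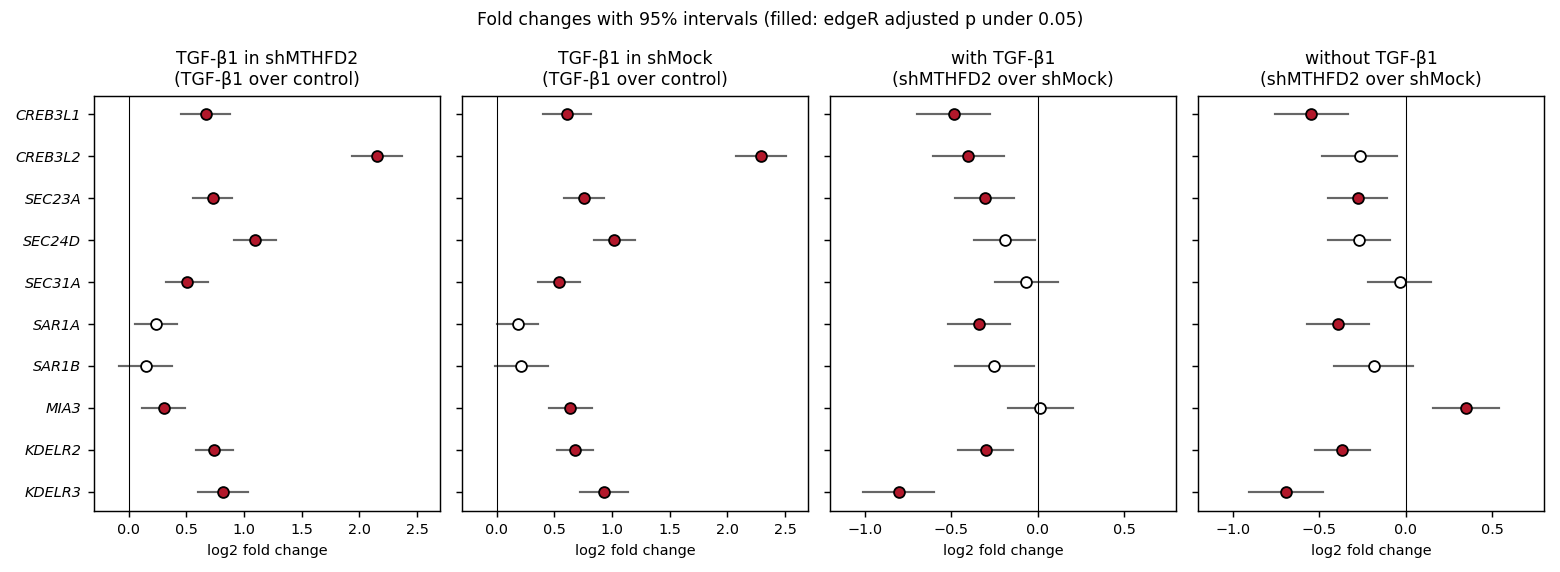
Log2 fold changes of the 10 genes (x axis) with 95% intervals from the edgeR fit, for TGF-β1 over control in shMTHFD2 and in shMock cells and for shMTHFD2 over shMock with and without TGF-β1. Filled points passed at an adjusted p under 0.05. CREB3L2 lies farthest to the right in both TGF-β1 panels (2.15 and 2.29), and KDELR3 farthest to the left in both line panels (−0.81 with and −0.69 without TGF-β1).

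CREB3L2 had the largest TGF-β1 fold change of the 10 genes in both lines, and CREB3L1 was lower in shMTHFD2 than in shMock cells in both states. CREB3L2 stood at 280.3 and 298 CPM in shMTHFD2 libraries with TGF-β1, 408 and 356 CPM in shMock libraries with TGF-β1, 66.9 and 63.0 CPM in shMTHFD2 control libraries and 85.4 and 70.9 CPM in shMock control libraries. All 4 TGF-β1 libraries lay far above all 4 control libraries, and within TGF-β1 the shMTHFD2 libraries were the lower ones. TGF-β1 raised it 4.45-fold in shMTHFD2 cells and 4.88-fold in shMock cells, as log2 2.15 ± 0.10 (adjusted p = 4.14e-10) and 2.29 ± 0.10 (adjusted p = 1.63e-10), each ± its standard error (SE). CREB3L1 stood at 182 and 204 CPM in shMTHFD2 libraries with TGF-β1, 297 and 243 CPM in shMock libraries with TGF-β1, 123 and 119 CPM in shMTHFD2 control libraries and 184 and 170.1 CPM in shMock control libraries. Each TGF-β1 group lay above its own control group, each shMTHFD2 group lay below its shMock group, and the shMTHFD2 libraries with TGF-β1 overlapped the shMock controls. The TGF-β1 response of CREB3L1 was log2 0.67 ± 0.10 (adjusted p = 0.000108) in shMTHFD2 cells and 0.61 ± 0.10 (adjusted p = 0.000181) in shMock cells. CREB3L1 is encoded at chr11:46277661-46321422 (plus strand) and CREB3L2 at chr7:137874979-138002067 (minus), in GRCh38.

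In shMTHFD2 relative to shMock, CREB3L1 was lower, at log2 −0.49 ± 0.10 (adjusted p = 0.00447) with TGF-β1 and −0.55 ± 0.10 (adjusted p = 0.00218) without. CREB3L2 was lower with TGF-β1, −0.40 ± 0.10 (adjusted p = 0.0131), and had −0.27 ± 0.10 (adjusted p = 0.11) without it. The calls with TGF-β1 were lost without shMTHFD2 TGF-β1 replicate 1 or shMock TGF-β1 replicate 1 (adjusted p = 0.0585 and 0.0608) for CREB3L1, and without shMTHFD2 TGF-β1 replicate 1 or shMock TGF-β1 replicate 1 (adjusted p = 0.0943 and 0.123) for CREB3L2. The responses to TGF-β1 differed between the lines by 0.06 (95% interval −0.24 to 0.36) for CREB3L1 and −0.13 (−0.43 to 0.16) for CREB3L2. Correcting for GC content turned the sign of the CREB3L1 value to −0.16, which did not pass either. Over all genes the interaction also rose with GC content (Spearman 0.473, a description).

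**Figure D2:**
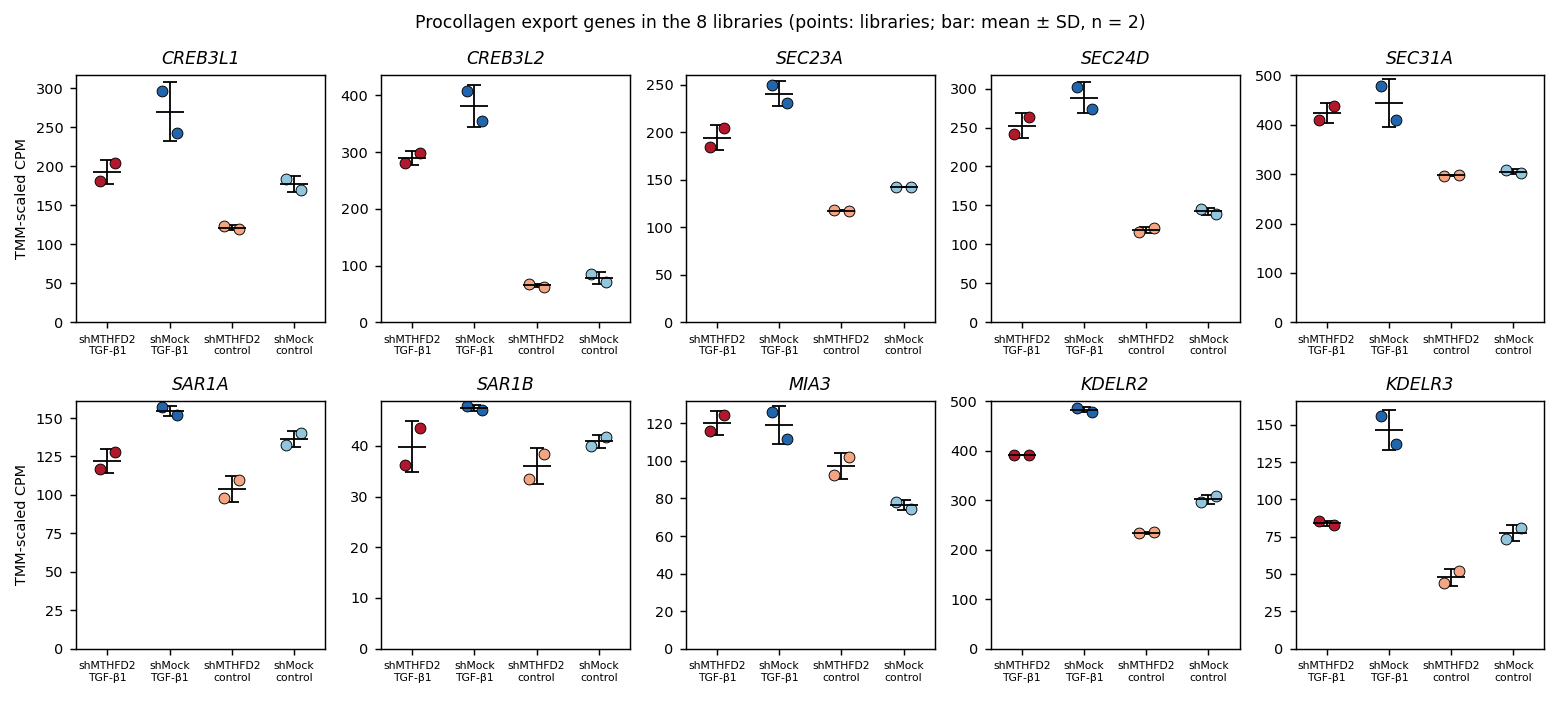
CPM of each of the 10 genes in the 8 libraries, with groups along the x axis, points for libraries and crossbars for the mean ± SD of 2 libraries. The y axes start at 0 and differ between genes. CREB3L2 stands between 280.3 and 408 CPM in the 4 TGF-β1 libraries, against 63.0 to 85.4 CPM in the 4 controls.

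The inner coat genes rose with TGF-β1 and the GTPase genes did not pass. SEC24D stood at 241 and 264 CPM in shMTHFD2 libraries with TGF-β1, 303 and 274 CPM in shMock libraries with TGF-β1, 115 and 121 CPM in shMTHFD2 control libraries and 146 and 139 CPM in shMock control libraries. SEC24D encodes a cargo-binding inner coat subunit, and all TGF-β1 libraries lay above all controls. It rose 2.14-fold in shMTHFD2 cells and 2.03-fold in shMock cells, with log2 fold changes of 1.10 ± 0.08 (adjusted p = 9.66e-08) and 1.02 ± 0.08 (adjusted p = 1.65e-07). SEC23A stood at 185 and 204 CPM in shMTHFD2 libraries with TGF-β1, 250.1 and 231 CPM in shMock libraries with TGF-β1, 118 and 117 CPM in shMTHFD2 control libraries and 142 and 143 CPM in shMock control libraries. SEC23A encodes the GTPase-activating partner of SEC24 in that layer. TGF-β1 libraries again lay above all controls, and in each state the shMTHFD2 libraries lay below the shMock libraries. The rise was 0.73 ± 0.08 (adjusted p = 6.02e-06) in shMTHFD2 cells and 0.75 ± 0.08 (adjusted p = 2.98e-06) in shMock cells.

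SEC31A encodes a subunit of the outer cage. SEC31A stood at 409.8 and 437 CPM in shMTHFD2 libraries with TGF-β1, 478 and 410.4 CPM in shMock libraries with TGF-β1, 297 and 299 CPM in shMTHFD2 control libraries and 309 and 302 CPM in shMock control libraries. TGF-β1 raised it by 0.51 ± 0.09 (adjusted p = 0.000353) in shMTHFD2 cells and 0.54 ± 0.09 (adjusted p = 0.000153) in shMock cells. With TGF-β1 the lines overlapped, and without it both shMTHFD2 libraries lay just below the shMock libraries, with shMTHFD2 over shMock at −0.07 ± 0.09 (adjusted p = 0.661) and −0.04 ± 0.09 (adjusted p = 0.854) with and without TGF-β1, neither past the test, and 95% intervals of −0.25 to 0.11 and −0.22 to 0.15. Both signs turned positive on library totals.

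SAR1A stood at 117 and 128 CPM in shMTHFD2 libraries with TGF-β1, 157 and 152 CPM in shMock libraries with TGF-β1, 97.7 and 110.0 CPM in shMTHFD2 control libraries and 132 and 140.2 CPM in shMock control libraries. SAR1A encodes a form of the GTPase that starts the coat, and every shMTHFD2 library was below every shMock library, whichever the state. It was lower in shMTHFD2, at −0.34 ± 0.08 (adjusted p = 0.0161) with TGF-β1 and −0.39 ± 0.08 (adjusted p = 0.00732) without. Its TGF-β1 values were 0.23 ± 0.09 (adjusted p = 0.0602) in shMTHFD2 cells and 0.18 ± 0.08 (adjusted p = 0.109) in shMock cells. The first of these passed without shMTHFD2 control replicate 2 (adjusted p = 0.0471) and with a GC correction (0.0192). SAR1B stood at 36.3 and 43.4 CPM in shMTHFD2 libraries with TGF-β1, 47.9 and 47.0 CPM in shMock libraries with TGF-β1, 33.5 and 38.5 CPM in shMTHFD2 control libraries and 40.0 and 41.8 CPM in shMock control libraries. SAR1B, the other GTPase form, whose loss causes chylomicron retention disease in people, had overlapping shMTHFD2 groups, while its shMock libraries with TGF-β1 lay above all others. No comparison of SAR1B passed, and its 95% intervals were −0.08 to 0.38 and −0.01 to 0.44 for TGF-β1 in shMTHFD2 and shMock cells and −0.48 to −0.02 and −0.41 to 0.04 for shMTHFD2 over shMock with and without TGF-β1.

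Between the lines, SEC23A was lower in shMTHFD2, at −0.31 ± 0.08 (adjusted p = 0.0203) with TGF-β1 and −0.28 ± 0.08 (adjusted p = 0.037) without. SEC24D had −0.19 ± 0.08 (adjusted p = 0.144) and −0.27 ± 0.08 (adjusted p = 0.0521) and passed in neither, although the second passed in 6 of the 18 settings run, with adjusted p from 0.0289 to 0.238 over the 18. These were DESeq2, no filter, GC offsets with and without the replicate block, and the fits without shMock TGF-β1 replicate 1 (adjusted p = 0.0392) or 2 (0.0365). With TGF-β1 the SEC23A call was lost without shMTHFD2 TGF-β1 replicate 1 or shMock TGF-β1 replicate 1 (adjusted p = 0.191 and 0.138) and that of SAR1A without shMTHFD2 TGF-β1 replicate 1 or shMock TGF-β1 replicate 1 (adjusted p = 0.145 and 0.0899). The control-state calls were lost without shMTHFD2 TGF-β1 replicate 1, shMTHFD2 control replicate 1, shMTHFD2 control replicate 2, shMock control replicate 1 or shMock control replicate 2 (adjusted p = 0.0614, 0.132, 0.197, 0.134 and 0.236) for SEC23A and without shMTHFD2 control replicate 1 or shMock control replicate 2 (adjusted p = 0.0891 and 0.115) for SAR1A. Across all genes the fold change between the lines with TGF-β1 rose with gene GC content (Spearman 0.329, a description), SEC23A is at 37.3% GC, and with GC offsets its value was −0.20 (adjusted p = 0.106). The share of that trend in the SEC23A result was not tested otherwise. The differences between the lines' TGF-β1 responses had 95% intervals of −0.27 to 0.21 for SEC23A, −0.17 to 0.33 for SEC24D, −0.29 to 0.22 for SEC31A, −0.20 to 0.31 for SAR1A and −0.39 to 0.26 for SAR1B. In GRCh38 the genes lie on the minus strand at chr4:118722823-118838683 (SEC24D), chr14:39031919-39109646 (SEC23A), chr4:82818661-82901166 (SEC31A), chr10:70147289-70170523 (SAR1A) and chr5:134601144-134649271 (SAR1B). Exons of SAR1B overlap those of SEC24A on the other strand, and exons of SEC31A those of THAP9-AS1 on the same strand and THAP9 on the other. Exons of SEC23A overlap those of SEC23A-AS1 on the other strand. Whether the counts use strand is not given in the sources used here, and these genes are uncertain to that extent.

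MIA3 was the 1 gene of the 10 called higher in shMTHFD2 than in shMock cells, and this in the control state. MIA3 stood at 116 and 125 CPM in shMTHFD2 libraries with TGF-β1, 126 and 112 CPM in shMock libraries with TGF-β1, 92.5 and 102 CPM in shMTHFD2 control libraries and 78.3 and 74.7 CPM in shMock control libraries. Without TGF-β1 both shMTHFD2 libraries lay above both shMock libraries, and with TGF-β1 the lines overlapped. In shMTHFD2 over shMock it was higher by 0.35 ± 0.09 (adjusted p = 0.0199) without TGF-β1 and stood at 0.01 ± 0.09 (adjusted p = 0.939) with it. TGF-β1 raised it by 0.30 ± 0.09 (adjusted p = 0.0189) in shMTHFD2 cells and by 0.64 ± 0.09 (adjusted p = 4.54e-05) in shMock cells. The difference between these responses was −0.33 (95% interval −0.60 to −0.07, unadjusted p = 0.0173, adjusted p = 0.302), and it did not pass over all genes. With GC offsets it was −0.21 (adjusted p = 0.647). The higher level without TGF-β1 was not called without shMTHFD2 control replicate 2, shMock control replicate 1 or shMock control replicate 2 (adjusted p = 0.162, 0.06 and 0.145), and the response in shMTHFD2 cells was not called without shMTHFD2 TGF-β1 replicate 2 or shMTHFD2 control replicate 1 (adjusted p = 0.149 and 0.185). MIA3 lies at chr1:222618086-222668012 on the plus strand. Its exons overlap those of AL592148.3 on the other strand, and its counts are uncertain to that extent.

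The KDEL receptor genes rose with TGF-β1 and were lower in shMTHFD2 cells, KDELR3 by the largest fold of the 10 in both states. KDELR3 stood at 85.2 and 82.7 CPM in shMTHFD2 libraries with TGF-β1, 156 and 137 CPM in shMock libraries with TGF-β1, 43.6 and 51.7 CPM in shMTHFD2 control libraries and 73.3 and 81.0 CPM in shMock control libraries. In each state every shMTHFD2 library lay below every shMock library. The TGF-β1 libraries of shMTHFD2 cells, at 85.2 and 82.7 CPM, stood just above the shMock controls. KDELR3 was 1.75-fold lower in shMTHFD2 than in shMock cells with TGF-β1 and 1.62-fold lower without, as log2 −0.81 ± 0.10 (adjusted p = 0.000103) and −0.69 ± 0.10 (adjusted p = 0.000403). Both calls held in each of the 18 settings run, where the value lay between −0.90 and −0.70 with TGF-β1 and between −0.81 and −0.56 without. TGF-β1 raised KDELR3 by 0.82 ± 0.10 (adjusted p = 1.65e-05) in shMTHFD2 cells and 0.93 ± 0.10 (adjusted p = 2.48e-06) in shMock cells, a difference of −0.11 (−0.41 to 0.19).

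KDELR2 stood at 391 and 392 CPM in shMTHFD2 libraries with TGF-β1, 486 and 479 CPM in shMock libraries with TGF-β1, 233 and 235 CPM in shMTHFD2 control libraries and 295 and 308 CPM in shMock control libraries. The replicates lay close together and the 4 groups did not overlap. KDELR2 was lower in shMTHFD2, at −0.30 ± 0.07 (adjusted p = 0.0147) with TGF-β1 and −0.37 ± 0.07 (adjusted p = 0.00488) without, and TGF-β1 raised it by 0.74 ± 0.07 (adjusted p = 1.99e-06) in shMTHFD2 cells and 0.68 ± 0.07 (adjusted p = 3.96e-06) in shMock cells. The response differed by 0.06 (−0.16 to 0.29). The line difference with TGF-β1 was not called without shMTHFD2 TGF-β1 replicate 1, shMTHFD2 TGF-β1 replicate 2 or shMock TGF-β1 replicate 1 (adjusted p = 0.0968, 0.0873 and 0.0624), and that without TGF-β1 not without shMock control replicate 2 (adjusted p = 0.1). KDELR2 lies at chr7:6445953-6484242 (minus strand) and KDELR3 at chr22:38468062-38483447 (plus strand).

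Both receptors overlap a neighbour, and their counts are uncertain to that extent. Exons of KDELR3 overlap those of DDX17 on the other strand, which stood at 740.1 to 1023 CPM over the 8 libraries, with log2 fold changes of 0.08 and 0.26 (adjusted p = 0.65 and 0.13) for shMTHFD2 over shMock with and without TGF-β1. KDELR2 overlaps DAGLB on the same strand, at 43.6 to 68.0 CPM, which fell with TGF-β1 in both lines, at −0.27 in shMTHFD2 cells (adjusted p = 0.0347) and −0.55 in shMock cells (adjusted p = 0.000144). For shMTHFD2 over shMock, DAGLB was lower without TGF-β1, at −0.29 (adjusted p = 0.0395), the direction of KDELR2. With TGF-β1 it stood at −0.0085 (adjusted p = 0.964). The part of DAGLB reads in the KDELR2 values was not tested.

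Levels of different genes can be set beside each other only per length, as TPM, which divides counts by transcript length before scaling, computed on the union of GENCODE exons. KDELR2 was the most abundant of the 10 in every group, at 406 ± 2.33 TPM in shMTHFD2 cells with TGF-β1, 463 ± 1.17 in shMock cells with TGF-β1, 228 ± 3.49 in shMTHFD2 controls and 296 ± 22.0 in shMock controls (SD, n = 2). SAR1B was the lowest in every group, at 13.6 and 16.4 TPM in the shMTHFD2 libraries with TGF-β1, 16.6 and 16.6 in the shMock libraries with TGF-β1, 12.1 and 13.4 in shMTHFD2 controls and 13.8 and 15.4 in shMock controls. Over the 8 libraries the means ran from KDELR2 (348 TPM) through CREB3L1 (185), KDELR3 (181), SEC31A (159), CREB3L2 (91.4), SEC24D (79.7), SEC23A (76.6), SAR1A (73.6) and MIA3 (40.1) to SAR1B (14.7). The middle of this order depends on the length used. With the longest transcript as length, SEC31A held place 2 (253 TPM), above CREB3L1 (207) and KDELR3 (150), and CREB3L2 place 7. On union exons the order changed with the state. KDELR3 held place 4 in both shMTHFD2 groups, against place 2 in shMock cells with TGF-β1 and place 3 in shMock controls, while CREB3L2 held place 5 in both TGF-β1 groups, against place 9 in shMTHFD2 controls and place 8 in shMock controls. Neighbours overlapped for CREB3L1 and SEC31A in shMTHFD2 cells with TGF-β1, and for KDELR3 and CREB3L1 and for SEC31A and CREB3L2 in shMock cells with TGF-β1.

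The make-up of several families shifted with these changes. CREB3L2 made up 41.5 and 40.2% of the TPM of CREB3L1 and CREB3L2 together in the shMTHFD2 libraries with TGF-β1 and 38.7 and 40.2% in the shMock libraries with TGF-β1, against 20.0 and 19.5% in shMTHFD2 controls and 17.5 and 16.1% in shMock controls. SEC24D made up 34.2 and 35.3% of the 4 SEC24 genes in shMTHFD2 with TGF-β1 and 38.3 and 37.5% in shMock with TGF-β1, and 22.2 and 22.5% in shMTHFD2 controls and 26.3 and 26.0% in shMock controls. In both families the TGF-β1 libraries lay above all controls. SEC23A, set against SEC23B, averaged 67.4 ± 1.98% and 69.8 ± 1.01% with TGF-β1 in shMTHFD2 and shMock cells, and 59.1 ± 1.80% and 56.3 ± 0.460% in their controls (SD, n = 2). KDELR3 averaged 17.8 ± 0.289% of the 3 KDEL receptor genes in shMTHFD2 with TGF-β1 and 25.8 and 24.4% in shMock with TGF-β1, and 14.7 ± 1.61% in shMTHFD2 controls and 19.1 ± 0.918% in shMock controls (SD, n = 2), and each shMTHFD2 group lay below its shMock group. KDELR1, the third receptor gene, held 42.1 and 42.2% and 35.4 and 34.4% of that total with TGF-β1 in shMTHFD2 and shMock cells, against 51.4 and 49.3% and 45.7 and 44.0% in their controls. SAR1A kept 81.9 to 84.2% of the SAR1 pair in all 8 libraries, and MIA3 79.8 to 84.0% of the pair with its partner MIA2. The shares are given as a description, with no test. With the longest transcript as length, which was chosen after the data were seen, SEC24D held 53.4 to 57.7% with TGF-β1 and 38.6 to 44.0% in controls, which lies above the shares on union exons in every group, in the same order of groups. On that length SEC23A was higher too, averaging 77.7 and 79.6% with TGF-β1 in shMTHFD2 and shMock cells and 70.9 and 68.5% in their controls. SAR1A, at 76.2 to 78.9%, and MIA3, at 67.3 to 73.3%, were lower, as were the shares of CREB3L2 and KDELR3.

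**Figure D3:**
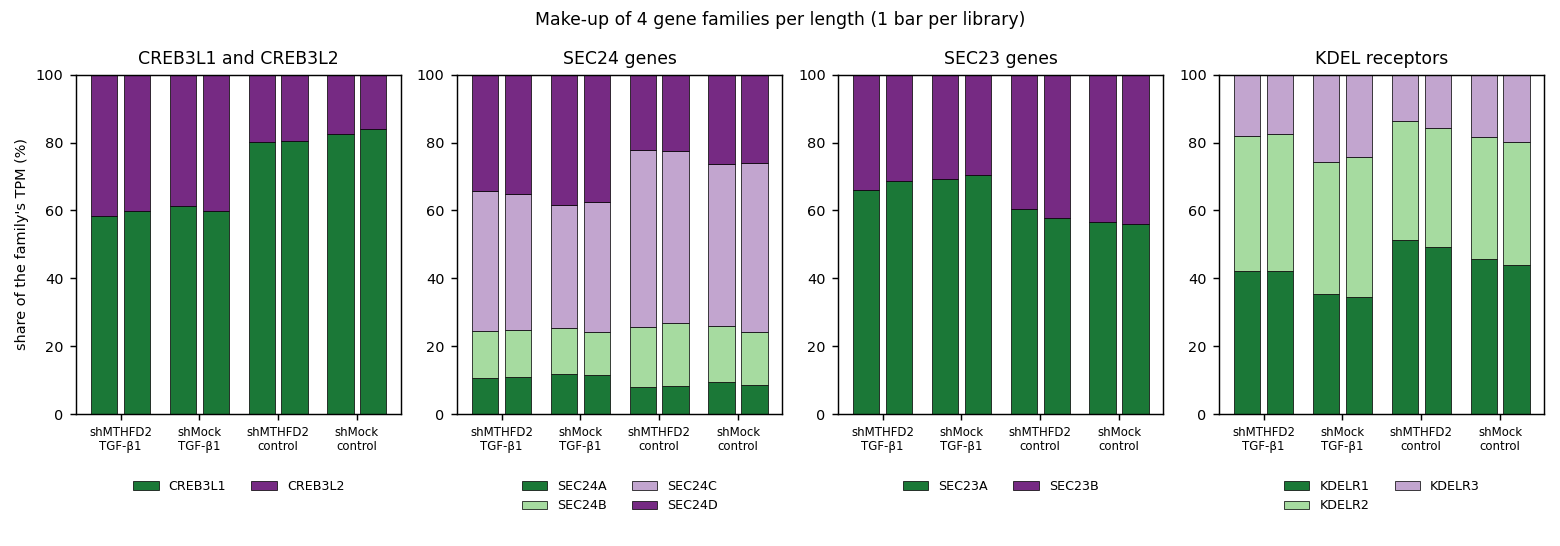
Share of each gene in the TPM of its family (y axis, percent), 1 bar per library, for CREB3L1 and CREB3L2, the SEC24 genes, the SEC23 genes and the KDEL receptors. CREB3L2 fills 38.7 to 41.5% of its bar in the TGF-β1 libraries and 16.1 to 20.0% in the controls.

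The rest of the pathway was read through 9 lists, which overlap in part. Their medians are read against −0.01 and −0.02 over all genes for TGF-β1 in shMTHFD2 and shMock cells, and 0.01 and −0.01 for shMTHFD2 over shMock with and without TGF-β1. Over all genes 12.8% were called higher and 11.0% lower in shMTHFD2 cells, and 17.3% higher and 18.1% lower in shMock cells. Collagen chains and reported targets had the highest medians with TGF-β1 in both lines. Every reported target is also a followed gene or stands in the chain, ER resident or COPI list. The target list therefore holds nothing new, and its TGF-β1 median in each line is the value of SEC23A. Of 4 tested genes of the CREB3 family and its Golgi proteases, 1 was higher with TGF-β1 in shMTHFD2 cells, CREB3 at 0.41 ± 0.09 (adjusted p = 0.00429), and none changed in shMock cells, where no unadjusted p was under 0.05 and DESeq2 called 0. There MBTPS1, the site-1 protease, had 0.10 ± 0.08 (adjusted p = 0.386) and CREB3 0.17 ± 0.09 (adjusted p = 0.167). The list's median was 0.04 in shMTHFD2 and 0.14 in shMock cells.

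Of 11 other COPII genes, 6 (54.5%) rose in each line and none fell (medians 0.30 in both). SEC24A, another SEC24 form, rose by 0.85 ± 0.10 (adjusted p = 1.3e-05) in shMTHFD2 cells and 0.86 ± 0.10 (adjusted p = 8.69e-06) in shMock cells. SEC16B, an exit-site scaffold, rose by 1.24 ± 0.21 (adjusted p = 0.000313) in shMTHFD2 cells, and its relative SEC16A by 0.53 ± 0.08 (adjusted p = 8.66e-05) in shMock cells. Of 15 other export genes, which include TANGO1 partners and the ubiquitin ligase CUL3 with KLHL12 that enlarges COPII carriers, 2 (13.3%) rose and none fell in shMTHFD2 cells (median 0.12), and 3 (20.0%) rose and 2 (13.3%) fell in shMock cells (0.07). The shares that rose, and the share that fell in shMock cells, lie near those over all genes and say nothing about the list. In shMTHFD2 cells none fell, against 11.0% over all genes, while 3 were called lower on library totals. MIA2, which encodes the TANGO1 partner cTAGE5, rose by 0.46 ± 0.11 (adjusted p = 0.00733) in shMTHFD2 and 0.54 ± 0.11 (adjusted p = 0.00184) in shMock cells, and NBAS by 0.30 ± 0.09 (adjusted p = 0.0285) and 0.49 ± 0.09 (adjusted p = 0.000834). PDCD6 and PEF1, calcium-binding adaptors of KLHL12, had −0.34 ± 0.10 (adjusted p = 0.0118) and −0.32 ± 0.09 (adjusted p = 0.0144) in shMock cells. The calls were lost without shMTHFD2 control replicate 1 (adjusted p = 0.0886) for MIA2 and without shMTHFD2 TGF-β1 replicate 1, shMTHFD2 TGF-β1 replicate 2 or shMTHFD2 control replicate 1 (adjusted p = 0.0823, 0.128 and 0.233) for NBAS in shMTHFD2 cells, without shMock TGF-β1 replicate 1 or shMock control replicate 2 (adjusted p = 0.103 and 0.0777) for PDCD6 and without shMock TGF-β1 replicate 2 or shMock control replicate 2 (adjusted p = 0.0884 and 0.274) for PEF1. Without shMock TGF-β1 replicate 1 the shMock count of this list was 2 higher and 1 lower.

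Of 17 cargo receptor and p24 genes, 7 (41.2%) rose and 2 (11.8%) fell in shMTHFD2 cells (median 0.02), and 6 (35.3%) rose and 4 (23.5%) fell in shMock cells (0.14). The shares that fell lie near those over all genes. LMAN1, a lectin that carries glycoproteins out of the ER, rose by 0.58 ± 0.09 (adjusted p = 0.000153) in shMTHFD2 and 0.85 ± 0.09 (adjusted p = 2.39e-06) in shMock cells. TMED9 rose by 0.51 ± 0.08 (adjusted p = 0.000145) in shMTHFD2 cells and TMED2 by 0.58 ± 0.08 (adjusted p = 5.5e-05) in shMock cells, both p24 genes. ERGIC1 fell, at −0.28 ± 0.07 (adjusted p = 0.0112) and −0.53 ± 0.07 (adjusted p = 4.49e-05) in the same order of lines, TMED5 at −0.34 ± 0.08 (adjusted p = 0.00664) in shMTHFD2 cells and LMAN2 at −0.35 ± 0.09 (adjusted p = 0.00621) in shMock cells. The shMTHFD2 calls of ERGIC1 and TMED5 were lost without shMTHFD2 TGF-β1 replicate 1 (adjusted p = 0.0996) and without shMTHFD2 TGF-β1 replicate 2 (adjusted p = 0.0855), and that of LMAN2 without shMock TGF-β1 replicate 2 or shMock control replicate 2 (adjusted p = 0.0608 and 0.0761). Without shMock control replicate 2 the shMock counts were 5 higher and 1 lower.

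Of 18 COPI and ARF genes, 10 (55.6%) rose and none fell in shMTHFD2 cells (median 0.30), and 9 rose and 1 (5.56%) fell in shMock cells (0.23). COPG1, a coat subunit, and ARFGAP1, which switches ARF1 off, rose by 0.71 ± 0.08 (adjusted p = 8.76e-06) and 0.67 ± 0.12 (adjusted p = 0.000816) in shMTHFD2 cells. COPA, another subunit, and the GTPase gene ARF4 rose by 0.75 ± 0.08 (adjusted p = 4.57e-06) and 0.74 ± 0.08 (adjusted p = 3.01e-06) in shMock cells, where ARF5 fell, at −0.47 ± 0.11 (adjusted p = 0.00415), a call lost without shMock control replicate 2 (adjusted p = 0.0673). Of 13 tethers and SNAREs, 7 (53.8%) rose and none fell in shMTHFD2 cells (0.34), and 10 (76.9%) rose and 1 (7.69%) fell in shMock cells (0.41). GORASP2, a Golgi stacking protein, rose by 0.66 ± 0.08 (adjusted p = 1.6e-05) in shMTHFD2 and 0.60 ± 0.08 (adjusted p = 3.5e-05) in shMock cells, GOLGA2 by 0.62 ± 0.07 (adjusted p = 1.41e-05) in shMTHFD2 cells and the tether USO1 by 0.63 ± 0.08 (adjusted p = 1.86e-05) in shMock cells. RAB1B fell in shMock cells, at −0.27 ± 0.08 (adjusted p = 0.0161), a call lost without shMock TGF-β1 replicate 2, shMock control replicate 1 or shMock control replicate 2 (adjusted p = 0.0766, 0.0653 and 0.118). Without shMock control replicate 1 the shMock counts were 7 higher and 0 lower.

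Of 24 soluble ER residents, which a KDEL receptor may meet as cargo, 16 (66.7%) rose and none fell in shMTHFD2 cells (median 0.54), and 15 (62.5%) rose and 1 (4.17%) fell in shMock cells (0.42). P3H1, which hydroxylates collagen prolines, and SERPINH1, the procollagen chaperone HSP47, rose by 1.01 ± 0.08 (adjusted p = 7.8e-08) and 1.01 ± 0.08 (adjusted p = 1.49e-07) in shMTHFD2 cells. FKBP14, a prolyl isomerase, and HYOU1, a chaperone, rose by 1.08 ± 0.10 (adjusted p = 7.58e-07) and 1.02 ± 0.09 (adjusted p = 4.24e-07) in shMock cells. ERP29 fell there, at −0.35 ± 0.10 (adjusted p = 0.0114), a call lost without shMock TGF-β1 replicate 2 or shMock control replicate 2 (adjusted p = 0.0996 and 0.0671). Of 14 collagen chain genes, 9 (64.3%) rose and 1 (7.14%) fell in shMTHFD2 cells (0.80), and 10 (71.4%) rose and 3 (21.4%) fell in shMock cells (0.77). COL5A1 rose by 1.81 ± 0.10 (adjusted p = 2.93e-09) and 1.73 ± 0.10 (adjusted p = 3.97e-09), and COL4A1 by 1.69 ± 0.09 (adjusted p = 2.13e-09) and 1.68 ± 0.09 (adjusted p = 1.76e-09), in shMTHFD2 and shMock cells. COL6A1 fell, at −0.40 ± 0.10 (adjusted p = 0.00707) in shMTHFD2 cells, a call lost without shMTHFD2 TGF-β1 replicate 2 or shMTHFD2 control replicate 1 (adjusted p = 0.0734 and 0.102), and at −0.65 ± 0.10 (adjusted p = 9.4e-05) in shMock cells, where COL5A3 fell, at −0.74 ± 0.11 (adjusted p = 8.72e-05). Of 9 genes reported as CREB3L1 or CREB3L2 targets in secretory cells, a list that holds SEC23A, SEC24D and KDELR3 themselves, 8 (88.9%) rose and none fell in shMTHFD2 cells (0.73) and 7 (77.8%) rose and none fell in shMock cells (0.75). COL1A1, another of them, rose by 1.32 ± 0.10 (adjusted p = 1.4e-07) and 1.10 ± 0.10 (adjusted p = 8.15e-07).

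**Figure D4:**
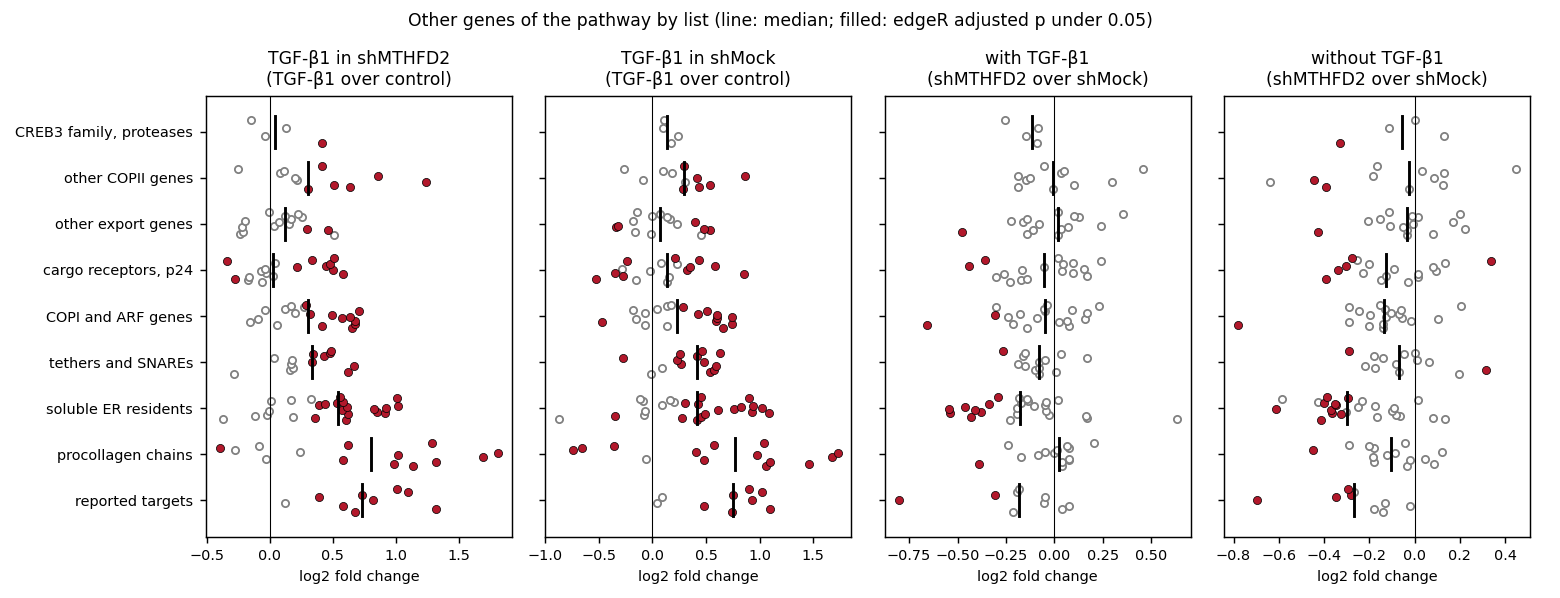
Log2 fold changes of the tested genes of the 9 lists (x axis), by list, for TGF-β1 over control in shMTHFD2 and shMock cells and for shMTHFD2 over shMock with and without TGF-β1. Each point is a gene, filled where it passed at an adjusted p under 0.05, and the line is the list's median. The ER residents have 8 and 10 filled points left of 0 in the 2 line panels.

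Between the lines, 8.23% of all genes were lower and 4.83% higher in shMTHFD2 cells with TGF-β1, and 8.19% were lower and 3.25% higher without it. Of the 24 soluble ER residents, 8 (33.3%) were lower and none higher with TGF-β1 (median −0.18), and 10 (41.7%) were lower and none higher without it (−0.30). HSPA5, which encodes the ER chaperone BiP, averaged 509 ± 18.3 CPM in shMTHFD2 and 741 ± 39.4 CPM in shMock libraries with TGF-β1 and 287 ± 4.52 CPM in shMTHFD2 and 438 ± 10.9 CPM in shMock libraries without (SD, n = 2), at log2 −0.54 ± 0.08 (adjusted p = 0.000383) and −0.61 ± 0.08 (adjusted p = 0.000153). FKBP14 was lower, at −0.54 ± 0.10 (adjusted p = 0.00262) with TGF-β1, and CALR, the chaperone calreticulin, at −0.41 ± 0.09 (adjusted p = 0.00703) without it, a call lost without shMTHFD2 control replicate 2 or shMock control replicate 2 (adjusted p = 0.109 and 0.106). With TGF-β1 the count was 3 without shMTHFD2 TGF-β1 replicate 1 or shMock TGF-β1 replicate 1, and 5 without shMTHFD2 TGF-β1 replicate 2. Without TGF-β1 it was 1 without shMTHFD2 control replicate 2 or shMock control replicate 2, and 5 without shMock control replicate 1.

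The other 8 lists held 0 to 2 calls each with TGF-β1 and 1 to 5 each without it. The shares called lower were 5.56% to 11.8% for the COPI, export, tether and chain lists in both states and cargo receptors with TGF-β1. They lie near the 8.23% with TGF-β1 and 8.19% without it over all genes, and say nothing about those lists. Of the COPI and ARF genes, 2 (11.1%) were lower with TGF-β1 (median −0.05) and 1 (5.56%) without (−0.14). ARF3, a GTPase gene of the COPI cycle, was lower in both states, at −0.66 ± 0.08 (adjusted p = 7.6e-05) and −0.78 ± 0.08 (adjusted p = 1.53e-05), and kept its call without any 1 library. COPB1 was lower with TGF-β1, at −0.31 ± 0.08 (adjusted p = 0.0189), a call lost without shMTHFD2 TGF-β1 replicate 1, shMTHFD2 TGF-β1 replicate 2 or shMock TGF-β1 replicate 1 (adjusted p = 0.0895, 0.104 and 0.107). Of the cargo receptors, 2 (11.8%) were lower with TGF-β1 (−0.05), and 4 (23.5%) were lower and 1 (5.88%) higher without (−0.13). TMED2 was lower with TGF-β1, at −0.44 ± 0.08 (adjusted p = 0.00269), and TMED7 at −0.36 ± 0.08 (adjusted p = 0.0107), the TMED7 call being lost without shMTHFD2 TGF-β1 replicate 2 or shMock TGF-β1 replicate 1 (adjusted p = 0.087 and 0.0656). Without TGF-β1, ERGIC1 was lower, at −0.39 ± 0.07 (adjusted p = 0.00273), SURF4, a cargo receptor, at −0.34 ± 0.07 (adjusted p = 0.0076), and TMED5 was higher by 0.34 ± 0.08 (adjusted p = 0.015). These calls were lost without shMock control replicate 2 (adjusted p = 0.0573) for ERGIC1, without shMTHFD2 control replicate 1, shMTHFD2 control replicate 2 or shMock control replicate 2 (adjusted p = 0.0588, 0.0545 and 0.0972) for SURF4, and without shMTHFD2 control replicate 2, shMock control replicate 1 or shMock control replicate 2 (adjusted p = 0.0561, 0.111 and 0.0542) for TMED5.

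None of the 11 other COPII genes differed with TGF-β1 (median −0.01), where 2 had an unadjusted p under 0.05 and DESeq2 called 0. There SEC24C had 0.05 ± 0.07 (adjusted p = 0.718) and SEC13, the partner of SEC31 in the outer cage, −0.19 ± 0.08 (adjusted p = 0.132). Without TGF-β1, SEC23B and SEC13 were lower (−0.02 for the list), at −0.44 ± 0.10 (adjusted p = 0.00741) and −0.39 ± 0.08 (adjusted p = 0.00485), calls lost without shMTHFD2 control replicate 1 or shMock control replicate 2 (adjusted p = 0.0759 and 0.085) and without shMTHFD2 control replicate 2 or shMock control replicate 2 (adjusted p = 0.0626 and 0.106). KLHL12 was the 1 lower gene (6.67%) of the export list in both states (medians 0.02 and −0.03). It stood at −0.48 ± 0.11 (adjusted p = 0.0117) with TGF-β1 and −0.43 ± 0.11 (adjusted p = 0.0209) without. These calls were lost without shMTHFD2 TGF-β1 replicate 1 or shMock TGF-β1 replicate 2 (adjusted p = 0.0813 and 0.0739) and without shMTHFD2 control replicate 1, shMock control replicate 1 or shMock control replicate 2 (adjusted p = 0.168, 0.0603 and 0.179).

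Of the tethers and SNAREs, YKT6 was lower with TGF-β1, at −0.26 ± 0.08 (adjusted p = 0.0445) (list median −0.08). Without it (−0.07) YKT6 was lower, at −0.29 ± 0.08 (adjusted p = 0.0331) and GOLGB1 higher by 0.31 ± 0.09 (adjusted p = 0.0391). YKT6 failed with TGF-β1 without shMTHFD2 TGF-β1 replicate 1, shMTHFD2 TGF-β1 replicate 2, shMock TGF-β1 replicate 1, shMock TGF-β1 replicate 2, shMock control replicate 1 or shMock control replicate 2 (adjusted p = 0.29, 0.0638, 0.0632, 0.17, 0.0616 and 0.0509), and without TGF-β1 without shMTHFD2 TGF-β1 replicate 1, shMTHFD2 control replicate 1, shMTHFD2 control replicate 2, shMock control replicate 1 or shMock control replicate 2 (adjusted p = 0.0523, 0.152, 0.131, 0.0838 and 0.273), and GOLGB1 without shMTHFD2 TGF-β1 replicate 2, shMTHFD2 control replicate 2 or shMock control replicate 2 (adjusted p = 0.053, 0.341 and 0.284). Among collagen chains, COL12A1 was lower with TGF-β1, at −0.39 ± 0.11 (adjusted p = 0.0363) (median 0.03) and COL5A3 without it at −0.45 ± 0.11 (adjusted p = 0.015) (−0.10), calls lost without shMTHFD2 TGF-β1 replicate 1, shMTHFD2 TGF-β1 replicate 2 or shMock TGF-β1 replicate 1 (adjusted p = 0.177, 0.107 and 0.296) and without shMTHFD2 control replicate 2 or shMock control replicate 1 (adjusted p = 0.172 and 0.128). In the CREB3 list no gene passed with TGF-β1 (−0.12), where 1 had an unadjusted p under 0.05, DESeq2 called 0, and MBTPS1 and CREB3 had −0.08 ± 0.08 (adjusted p = 0.556) and −0.09 ± 0.09 (adjusted p = 0.595). Without TGF-β1 (−0.06) CREB3 was lower, at −0.33 ± 0.09 (adjusted p = 0.0361), a call lost without shMTHFD2 TGF-β1 replicate 1, shMTHFD2 control replicate 1, shMTHFD2 control replicate 2, shMock control replicate 1 or shMock control replicate 2 (adjusted p = 0.0515, 0.0758, 0.24, 0.215 and 0.114). Of the 9 reported targets, 2 (22.2%) were lower with TGF-β1 (−0.18), KDELR3 and SEC23A, and 4 (44.4%) without (−0.27), these and P4HB, a protein disulfide isomerase and prolyl hydroxylase subunit, at −0.35 ± 0.09 (adjusted p = 0.0211), and SERPINH1. All of these calls are already counted above, among the followed genes or the ER residents, so that these shares hold nothing new. The P4HB call was lost without shMTHFD2 control replicate 2 or shMock control replicate 2 (adjusted p = 0.272 and 0.206), and without shMock control replicate 2 the list held 1 call.

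No gene of the 9 lists passed for the interaction by edgeR, each list holding 0 to 5 genes at an unadjusted p under 0.05, and DESeq2 called 0. Among the genes that the naming rule takes there, values ran from −0.22 ± 0.12 (adjusted p = 0.476) for CUL3 to 0.30 ± 0.13 (adjusted p = 0.352) for P4HB. Of the 57 list genes that the naming rule takes, 30 overlap another annotated gene in GENCODE release 29. Their counts are uncertain to that extent, on the same strand for some and on the other for others. Among them, ARF3 overlaps AC073610.2 and AC073610.3 on the same strand, and TMED7 overlaps TMED7-TICAM2 on the same strand. SEC24A overlaps SAR1B on the other strand.

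Across the 8 libraries the genes whose log CPM was most like that of CREB3L1 were SCD (Pearson 0.997), EIF2AK3 (0.994), CTTNBP2NL (0.991), SLC17A5 (0.990) and HSPA5 (0.988), a description over 8 libraries that share cytokine and line. SCD encodes a fatty acid desaturase and EIF2AK3 the ER stress kinase PERK. EIF2AK3 stood at 23.9 and 25.4 CPM in shMTHFD2 libraries with TGF-β1, 39.7 and 34.1 CPM in shMock libraries with TGF-β1, 14.3 and 13.2 CPM in shMTHFD2 control libraries and 21.7 and 20.8 CPM in shMock control libraries. As for CREB3L1, each TGF-β1 group was above its control and each shMTHFD2 group below its shMock group. Of the other 9 genes KDELR3 was most like CREB3L1 (0.967), then KDELR2 (0.947) and SEC23A (0.946), and MIA3 least (0.475). With CREB3L1 itself counted, 70, 176, 186 and 3594 tested genes had a higher correlation than these, in that order. For the remaining members the number ran from 613 to 1070.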

How the data were processed

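RNA of 8 libraries in 4 groups of 2 was analysed from the authors' deposited table of whole-number counts per gene ID; its name speaks of FPKM, but its values are counts. GRCh38, STAR 2.7.1a and DESeq2 1.32.0 stand in the submitters' processing notes. For the counter, annotation and strand setting nothing is given in the sources used here. Groups were taken from the sample titles. The count test was edgeR 4.0.16 (limma 3.58.1, R 4.3.3): trimmed-mean scaling, a filter keeping a mean CPM of 1 or more over all libraries (13493 genes, holding 99.8 to 99.85% of counts), 1 mean per group over 8 libraries with 4 residual degrees of freedom, the quasi-likelihood test and Benjamini-Hochberg adjustment over all genes, called under 0.05. The tests and intervals add to these 4 the prior degrees of freedom that edgeR borrows across genes. Standard errors are the fold change over the root of F, so they are approximate, and intervals cover 95%. The biological coefficient of variation was 8.79%. A count of 3 was worth 0.135 to 0.172 CPM, which covers counting error only.

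TPM used GENCODE release 29 exons; 58361 of 60666 IDs were found there. Promoter sequences are from RefSeq on GRCh38.p14. Alternatives were other scalings, filters, DESeq2 1.42.0, GC offsets, the replicate number as a block, the compared groups alone and each library left out. The fit was tested on simulated data. The 10 genes and the 9 lists were chosen with earlier results of these data known. Named in the text are the 10 genes, MTHFD2 and, per list and comparison, up to 2 higher and 2 lower genes with the largest fold change among those called, or the 2 of highest mean CPM where none was called. A further gene that this rule names is not reported here. The 5 genes most like CREB3L1 are those with the highest Pearson correlation of log2 CPM, and overlapping neighbours, likewise genes that complete a count (SERPINH1 among the reported targets), were named after their values were seen.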

Additional observations from a re-analysis of the deposited data

How the results depend on the processing

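Of the results for single genes, 843 kept direction and side of the threshold, 31 lost and 9 gained a call, and 25 changed sign; the cause was not tested. With library totals 3 of the 10 genes differed between the lines with TGF-β1, and 4 of the 10 kept their place by TPM with the longest transcript. The interaction was called for 321 genes with no filter, 36 at a mean of 5 CPM and 102 with DESeq2, in place of 12. Leaving out 1 library gave 2371 to 3363 genes and 7 to 9 of the 10 for TGF-β1 in shMTHFD2, 3295 to 4796 and 8 in shMock, 841 to 1822 and 1 to 6 for the lines with TGF-β1, 585 to 1681 and 2 to 7 without, and 3 to 192 and 0 for the interaction. The interaction changed sign for CREB3L1 (−0.16 with GC offsets, also with the replicate block; −0.0771 to 0.2132 without 1 library), SEC23A (0.13 and 0.13; −0.1003 to 0.032), SAR1B (0.0821 and 0.0789; −0.2019 to 0.0333), and, without 1 library, SAR1A (−0.0638 to 0.1116), KDELR2 (−0.0021 to 0.0953) and SEC31A (−0.1389 to 0.0824). Between the lines SEC31A turned to 0.0227 on library totals and lay at −0.1748 to 0.0521 without 1 library, with TGF-β1, and 0.0326 on totals without it, and MIA3 with TGF-β1 lay at −0.0708 to 0.111 without 1 library.

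The list counts that moved most are given as higher and lower. With TGF-β1 in shMTHFD2, the 2 export calls (both higher) became 4, 1 higher and 3 lower on library totals and 2 and 2 at 5 CPM; in shMock, GC offsets (with and without the block) called 1 CREB3 gene, higher. Between the lines with TGF-β1, totals called 2 export genes (1 and 1), 4 cargo receptors (2 and 2), 0 chains and 1 target (lower), 5 CPM 2 export and 4 COPI genes (all lower), DESeq2 2 and 4 (all lower), GC offsets 4 cargo receptors (1 and 3), no filter 2 chains (lower) and 1 COPII gene (higher), and the compared groups alone 0 tethers. Without TGF-β1, totals called 0 CREB3, 0 export and 2 COPI genes (1 and 1), 3 cargo receptors (1 and 2), 1 tether (higher) and 1 target (lower), no filter 4 COPII (1 and 3), 2 COPI and 2 chain genes (all lower), DESeq2 2 chains (lower), and GC offsets (also with the block) 2 export genes (lower). No filter called 1 COPII gene (higher) and 1 chain (lower) for the interaction. Leaving out 1 library gave, for TGF-β1 in shMTHFD2, TGF-β1 in shMock, the lines with and the lines without TGF-β1, CREB3 1, 0, 0 and 0 to 1; COPII 5 to 6, 4 to 6, 0 to 1 and 0 to 3; export 1 to 2, 3 to 5, 0 to 1 and 0 to 1; cargo receptors 6 to 9, 6 to 10, 1 to 2 and 0 to 5; COPI 8 to 10, 8 to 10, 1 to 4 and 1 to 2; tethers 6 to 7, 7 to 11, 0 to 1 and 0 to 2; ER residents 15 to 16, 14 to 16, 3 to 10 and 1 to 12; chains 9 to 11, 12 to 13, 0 to 1 and 0 to 2; and targets 7 to 8, 7, 1 to 2 and 1 to 5. For the interaction they gave 0, and 0 to 1 for tethers.

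Same-numbered libraries did not deviate together (correlations −0.0203 to 0.0687), so the numbers were not taken to pair them. With the replicate block the calls were 3194, 4753, 1735, 1530 and 13 genes, and the block changed no call of the 10 genes. Where an arm had 1 library left, that library was assumed to vary like the others.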
